A study of Mus musculus with 20 samples.

Results

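Tnc, Postn, Sparc, Sparcl1, Smoc1 and Smoc2 encode secreted proteins of the matricellular kind and are described here in the mouse abdominal aorta, as 6 of the 43422 genes listed for each aorta. The genes were chosen by name as a family of related function, with the lower FPKM (a read count scaled to gene length and to the total of the library) of Sparc in saline-treated Plod1-/- than in saline-treated WT mice already known. Values of that saline comparison are therefore given as a description, with no test. The study asked how loss of lysyl hydroxylase 1 (LH1), the product of Plod1 that hydroxylates lysines of procollagen before crosslinking, changes the aortic response to angiotensin II (Ang II), a pressor peptide used to produce dissecting abdominal aortic aneurysm. RNA from the whole abdominal aorta was sequenced on day 14 of infusion in 20 mice, 5 in each of 4 groups: WT mice given saline, WT mice given Ang II at 1000 ng/kg per minute, Plod1-/- mice given saline and Plod1-/- mice given the same dose of Ang II. By the labels all were C57BL/6 mice aged 6 months, whereas the study's methods name the C57Bl/6NCrl background and a younger age at pump implantation, so the age is uncertain. By the study's methods the mice came from intercrosses of heterozygous parents, so that the knockout is present in every cell. No gene threshold was part of the choice, so there are no genes just inside or just outside it.

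Matricellular proteins sit in the extracellular matrix without forming its load-bearing fibres, and bind collagens, integrins and growth factors. Tenascin-C (Tnc) loosens the attachment of cells to fibronectin and is known for low expression in the healthy adult artery and strong expression in injured or remodelling vessels. Periostin (Postn) binds collagen and fibronectin and helps the enzymes that process and crosslink collagen. SPARC (osteonectin) is a collagen-binding glycoprotein that takes part in the handling of procollagen, SPARC-like 1 (hevin) is its closest relative, and the SMOC proteins are matrix-associated relatives that carry the same calcium-binding domain and modulate growth factor signalling.

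The libraries held 24711666 to 29795031 reads (median 27372714), recovered from the deposited FPKM values, and the 6 genes had between 1452 reads (Tnc) and 242860 reads (Sparc) in a library. All 6 passed the filter on low values (5 or more aortas at 1 FPKM or above) in every comparison. The deleted gene itself, Plod1, had 22.8 to 29.7 FPKM in WT aortas and no more than 0.0415 FPKM in Plod1-/- aortas. Mitochondrial genes took 8.37% to 29.1% of the FPKM sum of a library, with the highest shares in Ang II-treated WT mice (14.6% to 29.1%). Xist RNA was present in 2 libraries, saline-treated Plod1-/- replicate 5 and Ang II-treated Plod1-/- replicate 1, although the study's methods name male mice. These 2 libraries were kept, and results that change without them are given. In bulk tissue, fewer cells of a type and less RNA per cell cannot be told apart.

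In GRCm38, Tnc (ENSMUSG00000028364) lies on chromosome 4 from 63959785 to 64047015 on the minus strand, and its exons overlap those of 8030451A03Rik on the opposite strand, which reached at most 0.2 FPKM. Postn (ENSMUSG00000027750) lies on chromosome 3 from 54361109 to 54391037 on the plus strand. Sparc (ENSMUSG00000018593) is on the minus strand of chromosome 11 from 55394500 to 55423183 and Sparcl1 (ENSMUSG00000029309) on the minus strand of chromosome 5 from 104079111 to 104113733. Smoc1 (ENSMUSG00000021136) is on the plus strand of chromosome 12 from 81026808 to 81186414 and Smoc2 (ENSMUSG00000023886) on the plus strand of chromosome 17 from 14279506 to 14404790. The genes thus lie on 6 different chromosomes and none is a neighbour of another.

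The RefSeq promoter table (GRCm38.p6) holds 5 start sites for 3 of the 6 genes, and the 250 bases before each start were searched on both strands for 4 motifs. These were the AP-1 motif TGANTCA, the TEAD factor motif GGAATG, the SMAD box CAGACA and the core promoter motif TATAAA. Tnc and Postn are shown because both were higher in Ang II-treated Plod1-/- than in Ang II-treated WT aortas. The windows are written 5′ to 3′ on the strand of the gene, at chr4:64047016-64047265 (minus strand) for Tnc and chr3:54360857-54361106 (plus strand) for Postn, with letters of the 4 motifs in capitals.
Tnc: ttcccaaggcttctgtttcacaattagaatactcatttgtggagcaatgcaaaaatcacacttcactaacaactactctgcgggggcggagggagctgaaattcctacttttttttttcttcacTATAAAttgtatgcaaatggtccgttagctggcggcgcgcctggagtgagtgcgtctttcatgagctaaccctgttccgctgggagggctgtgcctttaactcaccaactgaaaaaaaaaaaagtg
Postn: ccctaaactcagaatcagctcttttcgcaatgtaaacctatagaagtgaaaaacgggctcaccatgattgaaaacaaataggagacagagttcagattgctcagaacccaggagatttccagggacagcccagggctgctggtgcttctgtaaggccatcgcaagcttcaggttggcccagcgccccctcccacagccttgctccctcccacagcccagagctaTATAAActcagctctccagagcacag
The letters TATAAA begin 26 bases before the Postn start and 126 bases before this Tnc start. Of all 32851 windows in the table, 12.4% held TATAAA on either strand. The other Tnc window and the Sparc window each held the SMAD box letters on the other strand (TGTCTG), which 17.1% of all windows held, and their sequences are not printed because 79 and 238 of their 250 bases lie in annotated exons. The AP-1 letters, held by 6.75% of all windows, and the TEAD letters, held by 12.6%, were found in none of the 5 windows. A match of letters is a description and was not tested as a binding site.

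Under saline, the FPKM of Sparc was 1312, 1312, 1204, 1358 and 1352 in the 5 WT aortas and 884, 796, 730, 693 and 776 in the 5 Plod1-/- aortas. Every Plod1-/- value was below every WT value. The WT mean was 1307 ± 61.7 FPKM (SD, n = 5) and the Plod1-/- mean 776 ± 72.4 FPKM (SD, n = 5), a difference of -0.76 on the log2(FPKM + 1) scale, on which all differences below are given. Sparcl1 went the other way, with 237, 204, 204, 211 and 226 FPKM in WT and 371, 269, 409, 341 and 291 FPKM in Plod1-/- aortas, a difference of 0.62 without overlap. Smoc2 was at 120, 77.7, 85.5, 111 and 84.1 FPKM in WT and at 54.4, 64.1, 50.7, 36.8 and 29.5 FPKM in Plod1-/- aortas, a difference of -1.04, again without overlap. Tnc (-0.13), Postn (-0.39) and Smoc1 (-0.20) had values that overlapped between the genotypes. The groups thus did not overlap in 3 of the 6 genes, where 9.52% of the 11999 genes tested did not overlap. Across all genes in this comparison, 0.358% were called higher and 0.408% lower in Plod1-/- mice. Nothing is read from these shares, since Sparc was known from this comparison when the genes were chosen. Fibroblast markers were also lower in saline-treated Plod1-/- than in saline-treated WT aortas, where the summed FPKM of 5 such genes was 248 to 582 (mean 406) against 560 to 860 (mean 695). All 5 had negative differences (median -0.75), and 1 of them, Pi16, was called lower. Fibroblast markers were not alone in this. Median differences were also negative for endothelial (-0.76, 4 genes tested), macrophage (-0.37) and immediate early genes (-1.60). Those of smooth muscle, adipocyte, skeletal muscle and Schwann cell markers were positive. The part of any of these markers in the Sparc and Smoc2 values was not tested.

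**Figure D1:**
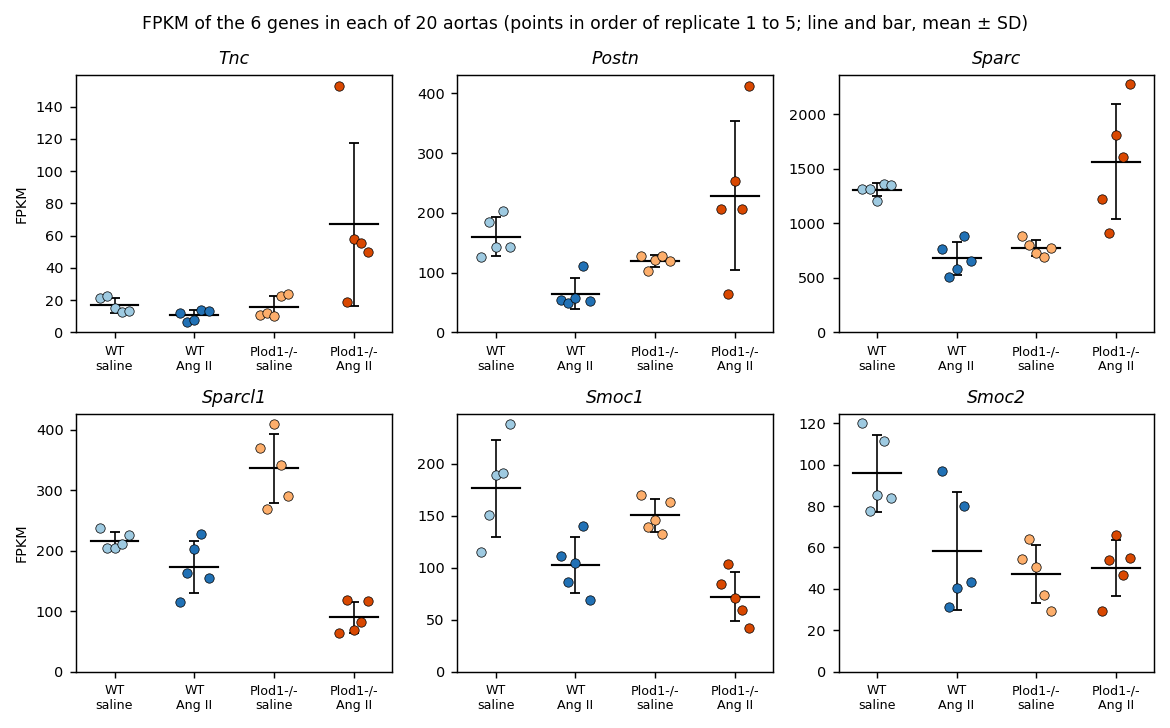
FPKM (vertical axis, from 0) of each gene in the 5 aortas of each group (horizontal axis), with points in the order of replicates 1 to 5, a line at the mean and a bar of 1 SD on either side. In Ang II-treated Plod1-/- aortas, Tnc, Postn and Sparc spread widely, from 19.0 to 153, 65.0 to 413 and 906 to 2274 FPKM, and Sparcl1 lies between 64.3 and 118 FPKM, below all saline-treated aortas.

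The response to Ang II was first examined within Plod1-/- mice, where Tnc rose and Sparcl1 and Smoc1 fell. A gene was called a DEG (differentially expressed gene) where limma gave an adjusted p-value (Benjamini-Hochberg) under 0.05 and the difference exceeded 1 in either direction. Tnc was a DEG with higher expression and Sparcl1 and Smoc1 were DEGs with lower expression, that is 1 and 2 of the 5 genes other than Sparc. Of the 12333 genes tested, 8.38% rose and 5.51% fell past both thresholds. The saline-treated mice of this comparison also belong to the comparison in which Sparc was noticed, so the response of Sparc is given as a description, with no test.

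Tnc stood at 11.0, 12.3, 10.1, 22.7 and 23.6 FPKM in the saline-treated Plod1-/- aortas and at 153, 19.0, 57.8, 55.4 and 49.9 FPKM under Ang II. All Ang II-treated aortas except replicate 2 were above the highest saline-treated aorta. The difference was 1.79 (SE 0.46, limma adjusted p = 0.0101), a 3.47-fold rise on this scale. Postn, the fasciclin-domain protein, stood at 128, 104, 121, 129 and 119 FPKM under saline and at 207, 65.0, 253, 207 and 413 FPKM under Ang II. Here too replicate 2 was apart, below all saline-treated aortas, while the others were above them all. The Postn difference of 0.71 (SE 0.39) did not pass the test (limma adjusted p = 0.165), and without Ang II-treated replicate 2 it was 1.10 (limma adjusted p = 0.00245).

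For Sparc, the Ang II-treated Plod1-/- aortas held 1220, 906, 1805, 1609 and 2274 FPKM against 693 to 884 FPKM under saline. The groups did not overlap, and the mean went from 776 ± 72.4 (SD, n = 5) to 1563 ± 528 FPKM (SD, n = 5). The difference was 0.94, and it was 1.02 without the libraries with Xist RNA, 1.02 without Ang II-treated replicate 1 and 1.12 without Ang II-treated replicate 2.

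Sparcl1 moved most of the 6 genes in this comparison by adjusted p. The Ang II-treated aortas held 64.3, 118, 68.4, 82.3 and 117 FPKM, all below the lowest saline-treated aorta at 269 FPKM. The fall of 1.92 on the log2 scale (difference -1.92, SE 0.20, limma adjusted p = 8.46e-05) took the mean from 336 ± 57.2 (SD, n = 5) to 90.0 ± 26.0 FPKM (SD, n = 5). Smoc1, of the SMOC pair, was at 170, 139, 146, 132 and 164 FPKM under saline and at 84.5, 104, 71.3, 59.2 and 41.6 FPKM under Ang II, without overlap. Its difference was -1.11 (SE 0.22, limma adjusted p = 0.00216), and without Ang II-treated replicate 5, the lowest aorta, it was -0.93 (limma adjusted p = 0.00226), under the size threshold. Smoc2 held 29.2, 53.9, 65.9, 46.5 and 55.1 FPKM under Ang II, within or near its saline-treated range of 29.5 to 64.1 FPKM. The Smoc2 difference of 0.09 (SE 0.25, limma adjusted p = 0.795) was within the spread between mice. Beside Sparc, Sparcl1 and Smoc1 were the 2 of the other 5 genes without overlap, where 29.2% of all genes tested did not overlap.

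In WT mice, all 6 genes had lower mean log2 values under Ang II, and Postn was the DEG among the 5 genes other than Sparc, 1 gene with lower and 0 with higher expression. Without the size threshold, 4 of these 5 had an adjusted p-value below 0.05, Sparcl1 being the exception. By that measure alone, 4560 of the 11994 genes tested passed. The saline-treated WT values of Sparc were an arm of the comparison in which it was noticed, so its response in WT mice is also given with no test. Of the 11994 genes tested in WT mice, 6.38% rose and 2.28% fell past both thresholds. The median difference was -0.80 over the 6 genes and -0.14 over all genes tested.

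Postn was at 127, 185, 143, 203 and 142 FPKM in saline-treated WT and at 53.6, 49.5, 57.6, 110 and 53.1 FPKM in Ang II-treated WT aortas. The ranges did not overlap, and Ang II-treated replicate 4 lay closest to the saline-treated mice. The difference was -1.34 (SE 0.22, limma adjusted p = 0.00227). Sparc likewise did not overlap, with 760, 510, 577, 886 and 658 FPKM under Ang II against at least 1204 FPKM under saline. Its difference was -0.97, and it was -1.02 without Ang II-treated replicate 1 and -1.07 without Ang II-treated replicate 4. Beside Sparc, Postn was the 1 of the other 5 genes without overlap, where 17.3% of all genes tested had none.

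The other 4 genes differed less in WT mice. Tnc was at 21.2, 22.7, 15.1, 12.5 and 13.5 FPKM under saline and at 12.3, 6.63, 7.64, 14.0 and 13.2 FPKM under Ang II, so the ranges overlapped (difference -0.63, SE 0.23, limma adjusted p = 0.0499). Smoc1 ran from 115 to 238 FPKM under saline and from 68.8 to 140 FPKM under Ang II (difference -0.78, SE 0.22, limma adjusted p = 0.0211). Smoc2 differed by -0.81 (SE 0.29, limma adjusted p = 0.0430), with Ang II-treated values of 96.7, 31.4, 40.5, 80.1 and 43.4 FPKM. Replicates 1 and 4 held the high Smoc2 values and reached into the saline-treated range, and without replicate 1 the difference was -1.02 (limma adjusted p = 0.0132). Sparcl1 held 116, 163, 202, 227 and 155 FPKM under Ang II against 204 to 237 FPKM under saline, a difference of -0.36 (SE 0.17) that did not pass the test (limma adjusted p = 0.110).

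Between the genotypes under Ang II, Tnc, Postn and Sparc were all DEGs with higher expression in Plod1-/- mice, 3 of the 6 genes against 7.45% of the 12356 genes tested. None of the 6 was a DEG with lower expression, where 3.67% of all genes were. This comparison used none of the saline-treated mice. The difference was 2.29 for Tnc (SE 0.44, limma adjusted p = 0.00537), or 4.88-fold, as the WT aortas lay between 6.63 and 14.0 FPKM and the lowest Plod1-/- aorta at 19.0 FPKM. For Postn the difference was 1.65 (SE 0.42, limma adjusted p = 0.0156), or 3.14-fold, although Plod1-/- replicate 2 at 65.0 FPKM lay below WT replicate 4 at 110 FPKM. Sparc differed by 1.16 (SE 0.28, limma adjusted p = 0.0115), or 2.23-fold, with the highest WT aorta at 886 FPKM just under the lowest Plod1-/- aorta at 906 FPKM. The calls of Tnc, Postn and Sparc were the same in all 20 alternative settings, with differences of 1.92 to 2.65, 1.38 to 2.05 and 1.01 to 1.40.

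Sparcl1 was lower in Ang II-treated Plod1-/- than in Ang II-treated WT aortas by adjusted p-value, with a difference of -0.94 (SE 0.24, limma adjusted p = 0.0143) under the size threshold. The WT aorta of replicate 1, at 116 FPKM, lay within the Plod1-/- range, and without it the difference was -1.08 (limma adjusted p = 0.00776) and past the threshold. It was also past the threshold without Plod1-/- replicate 2 (-1.05), without Plod1-/- replicate 5 (-1.05) and with mitochondrial genes left out (-1.05). Smoc1 differed by -0.52 (SE 0.26, limma adjusted p = 0.143) and Smoc2 by -0.13 (SE 0.32, limma adjusted p = 0.772), both within the spread between mice. Tnc and Sparc were the 2 of 6 genes without overlap, where 15.1% of all genes tested had none.

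**Figure D2:**
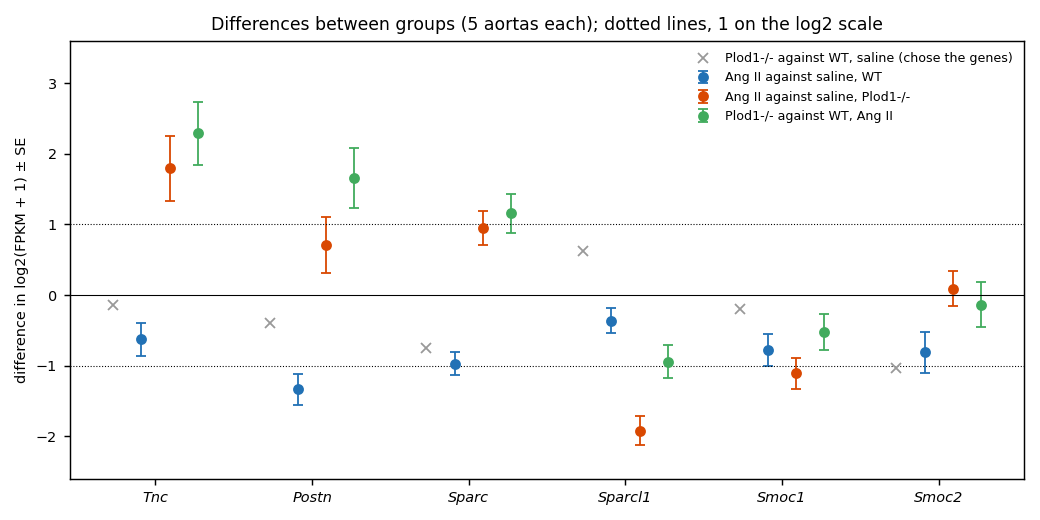
Differences between group means in log2(FPKM + 1) for each gene, with bars of 1 SE from limma on either side (5 aortas a group). Crosses mark the saline comparison from which Sparc was known and carry no SE, and dotted lines mark a difference of 1. Tnc, Postn and Sparc lie below 0 for Ang II in WT and above 0 for Ang II in Plod1-/- mice, and Sparcl1 lies lowest for Ang II in Plod1-/- mice (-1.92).

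Whether the response to Ang II itself differed between the genotypes was tested as an interaction over all 20 mice, which share both saline-treated groups with the comparisons above. The response in Plod1-/- minus that in WT mice was 2.42 for Tnc (SE 0.54, limma adjusted p = 0.00256) and 2.05 for Postn (SE 0.47, limma adjusted p = 0.00289). It was -1.56 for Sparcl1 (SE 0.27, limma adjusted p = 3.83e-04). Across the 13263 genes tested, 9.69% had a positive and 6.36% a negative difference past both thresholds, against 2 and 1 of the 5 genes other than Sparc. These 3 calls were the same in all 29 alternative settings. The Smoc1 response did not differ detectably (-0.33, SE 0.32, limma adjusted p = 0.441). Smoc2 had a difference of 0.90 (SE 0.40, limma adjusted p = 0.0825) that passed the thresholds without WT Ang II replicate 1 (1.12), WT Ang II replicate 4 (1.05) or Plod1-/- Ang II replicate 1 (1.08), and with weights per mouse (1.26). For Sparc the value was 1.92, given with no test because it is the genotype difference under Ang II (1.16) minus the saline difference (-0.76) that was known when the genes were chosen.

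Group means of Tnc, Postn and Sparc came in the same order, highest in Ang II-treated Plod1-/- mice, next in saline-treated WT, then in saline-treated Plod1-/- and lowest in Ang II-treated WT mice, where Sparc was at 678 ± 149 FPKM (SD, n = 5). For Tnc and Postn, neighbours in that order overlapped. For Sparc the first pair and the last pair overlapped, while saline-treated WT and saline-treated Plod1-/- aortas did not. Sparcl1 went from saline-treated Plod1-/- (336 ± 57.2 FPKM, SD, n = 5) to saline-treated WT (216 ± 14.7), Ang II-treated WT (173 ± 43.2) and Ang II-treated Plod1-/- mice (90.0 ± 26.0), with overlap between WT mice with and without Ang II and between both Ang II-treated groups. For Tnc the group means were 17.0 ± 4.65 FPKM (SD, n = 5) in saline-treated WT, 15.9 ± 6.61 in saline-treated Plod1-/-, 10.8 ± 3.38 in Ang II-treated WT and 67.0 ± 50.4 in Ang II-treated Plod1-/- mice. Among the 6 pairs of groups for Tnc, only the genotypes under Ang II were without overlap. Smoc2 was highest in saline-treated WT mice (95.7 ± 18.7 FPKM, SD, n = 5), and the other groups, at 47.1 ± 13.9 to 58.4 ± 28.4 FPKM, overlapped with each other.

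FPKM is scaled to gene length, so levels were set side by side between genes as a rough guide. The exons of Tnc overlap those of another gene, and how such reads were counted is not known. Sparc was the most abundant of the 6 in every group and ranked between 20 and 51 among all genes by group mean FPKM. Its share of the summed FPKM of the 6 genes was 66.3 ± 1.23% (SD, n = 5) in saline-treated WT, 53.7 ± 3.16% in saline-treated Plod1-/-, 62.4 ± 3.65% in Ang II-treated WT and 74.8 ± 4.02% in Ang II-treated Plod1-/- aortas. The sum itself was 1973 ± 99.3, 1445 ± 105, 1087 ± 233 and 2071 ± 629 FPKM in the same order of groups. Tnc was the least abundant of the 6 in both saline-treated groups (WT, then Plod1-/-) and in Ang II-treated WT mice, at ranks 2942, 3117 and 4211, and reached rank 834 in Ang II-treated Plod1-/- mice.

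The ratio of related genes within an aorta does not depend on the scaling of the library and was taken as a description. The Sparc to Sparcl1 ratio was 5.53 to 6.43 in saline-treated WT, 2.85 to 6.58 in Ang II-treated WT, 1.79 to 2.96 in saline-treated Plod1-/- and 7.65 to 26.4 in Ang II-treated Plod1-/- aortas. The Ang II-treated Plod1-/- ratios were thus above all others, and those of saline-treated Plod1-/- mice overlapped only with Ang II-treated WT mice. Mean log2 ratios were 2.60 ± 0.09 (SD, n = 5), 1.98 ± 0.47, 1.22 ± 0.29 and 4.10 ± 0.68 in the same order. Smoc2 against Smoc1 gave log2 ratios of -0.86 ± 0.58 (SD, n = 5), -0.90 ± 0.52, -1.72 ± 0.50 and -0.51 ± 0.75, and these ranges overlapped in part.

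**Figure D3:**
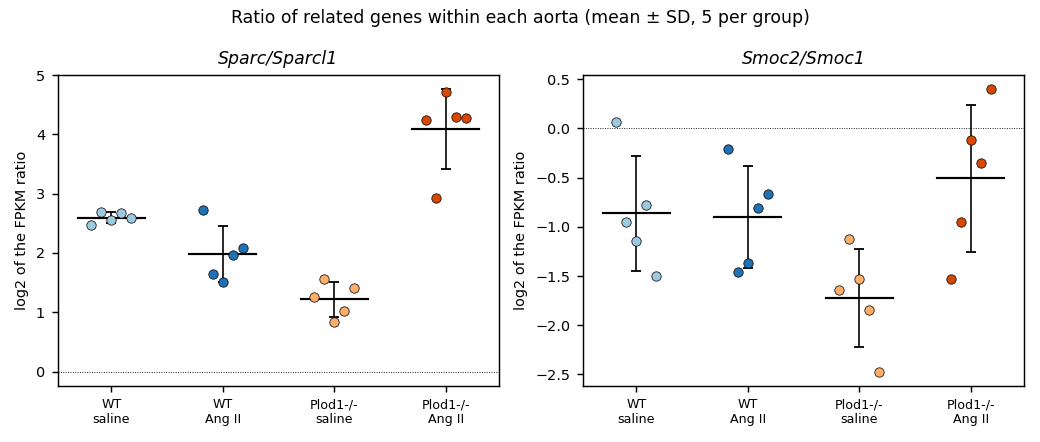
Log2 of the FPKM ratio of Sparc to Sparcl1 (left) and of Smoc2 to Smoc1 (right) within each aorta, by group, with a line at the mean and a bar of 1 SD on either side (5 aortas a group). Ang II-treated Plod1-/- aortas lie between 2.94 and 4.72 for Sparc to Sparcl1, above every other aorta, while the groups overlap for Smoc2 to Smoc1.

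Within groups, the genes differed in where the mice spread most. The group of Ang II-treated Plod1-/- mice held 75.0% of the squared deviation from group means for Postn, 68.6% for Sparc, 63.0% for Tnc, 44.6% for Sparcl1 and 42.9% for Smoc1. For Smoc2 it held 20.6%, and Ang II-treated WT mice held 50.2%. After group means were subtracted, 15 pairs of genes were compared over the 20 mice by permuting mice within groups. Postn and Sparc varied together (Pearson r = 0.84, permutation p = 0.00127, adjusted over 15 pairs p = 0.0191, n = 20). Their Spearman rho was 0.57 (permutation p = 0.0190, adjusted p = 0.142), and without the 2 mice farthest from the median of Postn r was 0.58, so the relation rests partly on those mice. Sparc and Smoc2 had a Spearman rho of 0.72 (permutation p = 0.00211, adjusted p = 0.0316) and an r of 0.51 (permutation p = 0.0488, adjusted p = 0.354). Tnc had no pair with an adjusted p-value below 0.05, its r with Sparcl1 being -0.51 (permutation p = 0.0709, adjusted p = 0.354).

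**Figure D4:**
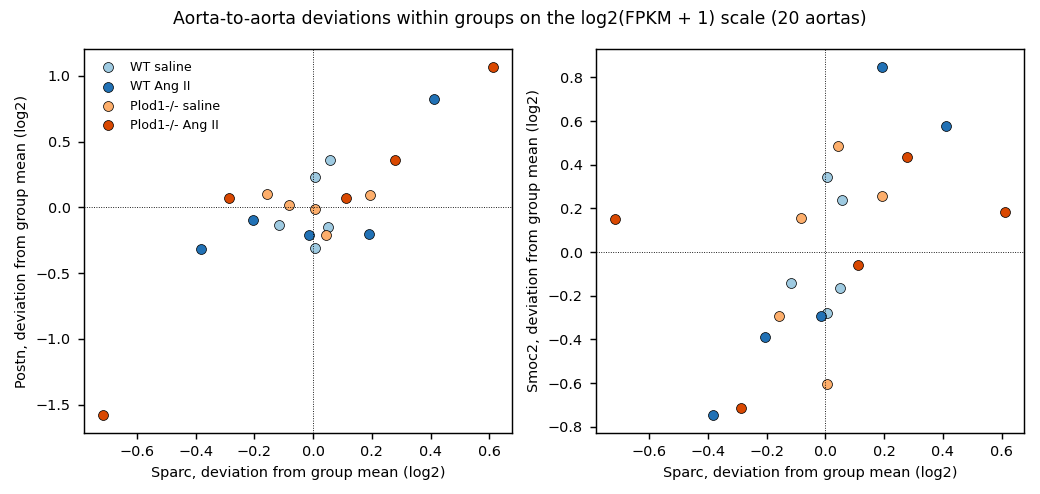
Deviation of each aorta from its group mean in log2(FPKM + 1), for Sparc (horizontal axes) against Postn (left) and Smoc2 (right), coloured by group (20 aortas). Ang II-treated Plod1-/- replicates 2 and 5 form the ends of the left panel, at -0.72 and 0.61 for Sparc and at -1.58 and 1.07 for Postn.

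The genes whose deviations over the 20 mice were most like those of each gene were sought among 13263 genes, as a description with no test. For Sparc these were P3h1, a prolyl 3-hydroxylase of collagen (r = 0.92), Chsy1, a chondroitin synthase (r = 0.92), and Copg1, a subunit of the coat of Golgi transport vesicles (r = 0.89). Chsy1 (r = 0.94) also led for Postn, before Col6a3, a chain of collagen VI (r = 0.92), and B3gnt9 (r = 0.91). Tnc was most like Fn1, which encodes fibronectin (r = 0.91), Adamts8 (r = 0.90) and Ereg, an epidermal growth factor family ligand (r = 0.86). The nearest genes were Icmt, Thap12 and 1190002N15Rik for Sparcl1 (r = 0.81 each), Perp (r = 0.88), Nfkbia (r = 0.84) and Lin52 (r = 0.82) for Smoc1, and Slc30a5 (r = 0.87), Folr2 (r = 0.87) and Smpdl3b (r = 0.85) for Smoc2. All points share their libraries.

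The wider set of genes around this family was described by lists drawn up from known functions. Their counts stand beside shares of all genes called of 8.38% higher and 5.51% lower for Ang II in Plod1-/- mice, 6.38% and 2.28% for Ang II in WT mice, and 7.45% and 3.67% between the genotypes under Ang II. Of 8 matrix partners, which are fibrillar collagens, fibronectin and enzymes that process collagen, all 8 were tested. In Plod1-/- mice 6 rose and none fell under Ang II (median difference 2.06 against 0.05 over all genes tested), led by Col1a1 (3.27, limma adjusted p = 6.30e-04), Col3a1 (3.07, limma adjusted p = 4.71e-04) and the crosslinking enzyme Lox (2.81, limma adjusted p = 1.66e-04). Fn1, the fibronectin gene, had a difference of -0.48 (limma adjusted p = 0.223) and Bmp1, a procollagen proteinase, one of 0.80 (limma adjusted p = 0.0434). In WT mice none of the 8 passed both thresholds (median -0.51 against -0.14). Between the genotypes under Ang II, 7 of 8 were higher in Plod1-/- mice and none lower (median 2.39 against 0.12), Fn1 being the exception (0.42, limma adjusted p = 0.314).

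Among 12 other matricellular genes, 11 were tested in Plod1-/- mice, of which 5 rose and 1 fell under Ang II (median 0.69). Spp1, which encodes osteopontin (4.37, limma adjusted p = 6.62e-04), and Thbs1, which encodes thrombospondin-1 (3.34, limma adjusted p = 3.70e-04), rose most, and Ccn3 fell (-1.73, limma adjusted p = 0.00244). Thbs4 (2.68) and Ccn4 (2.03) are among the 5 but are given with no test. Both reached the filter chiefly through the Ang II-treated aortas, with saline-treated medians of 0.234 and 0.945 FPKM. Of 9 tested in WT mice, 2 rose and 3 fell (median -0.51). Spp1 (3.05, limma adjusted p = 0.0115) and Comp (1.31, limma adjusted p = 0.00181) rose there, and Ccn1 (-2.04, limma adjusted p = 0.00383), Ccn2 (-1.49, limma adjusted p = 0.00710) and Ccn3 (-1.02, limma adjusted p = 0.0204) fell. Under Ang II, 7 of 11 were higher and 1 lower in Plod1-/- than in WT mice (median 1.44), with Thbs1 at 4.21 (limma adjusted p = 1.54e-04). Ccn4, among the 7, reached the filter only through the Plod1-/- aortas, as no Ang II-treated WT aorta exceeded 0.661 FPKM.

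The nearer relatives, further tenascins, the fasciclin-domain gene Tgfbi, the testicans and Fstl1, numbered 8, of which 5 were tested in Plod1-/- mice. Tnxb, which encodes tenascin-X, fell from 28.4 to 12.1 mean FPKM under Ang II (-1.23, limma adjusted p = 0.00161). Tnn, which encodes tenascin-W, went from 0.617 to 6.54 mean FPKM (1.93), given with no test. It reached the filter only through the Ang II-treated Plod1-/- aortas, at 2.27 FPKM or more against at most 0.736 FPKM under saline. In WT mice 4 were tested and 1 fell, Fstl1, a follistatin-like protein with a SPARC-like domain (-1.08, limma adjusted p = 0.00561). Fstl1 (1.55, limma adjusted p = 0.00678) was higher in Ang II-treated Plod1-/- than in Ang II-treated WT mice. Tnn differed by 2.12 there, given with no test for the same reason, as no Ang II-treated WT aorta exceeded 0.627 FPKM. The medians of the relatives were 0.81 in Plod1-/- mice, -0.59 in WT mice and 0.56 between the genotypes under Ang II.

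Receptors that bind members of the family were 9 integrin, scavenger receptor, syndecan and toll-like receptor genes, all tested. In Plod1-/- mice 3 fell and 1 rose under Ang II. The integrin genes Itga8 (-2.01, limma adjusted p = 1.51e-04), Itga9, whose product is a tenascin-C receptor (-1.47, limma adjusted p = 0.00129), and Itgb5 (-1.22, limma adjusted p = 6.34e-05) fell. Stab1, which encodes stabilin-1, a scavenger receptor for SPARC on macrophages, rose (2.70, limma adjusted p = 0.00330). In WT mice 4 fell, Itgb1, Itgb3, Itga8 and Sdc4, with differences from -1.24 to -1.03, and none rose. Stab1 was the 1 gene called between the genotypes under Ang II (1.75, limma adjusted p = 0.0376).

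Of 9 genes for inputs of the transforming growth factor beta pathway, none passed both thresholds under Ang II in Plod1-/- mice and 2 fell in WT mice, Tgfb3 (-1.20, limma adjusted p = 0.0229) and Tgfbr1 (-1.18, limma adjusted p = 0.00273). In Plod1-/- mice, 3 of the 9 had an adjusted p-value below 0.05 with smaller differences, Tgfb1 (0.87, limma adjusted p = 0.0108), Tgfbr1 (-0.81, limma adjusted p = 1.52e-04) and Smad2 (0.59, limma adjusted p = 0.00641). By adjusted p-value alone, 5408 of the 12333 genes tested passed in these mice. Tgfb1, the ligand gene, was higher in Ang II-treated Plod1-/- than in Ang II-treated WT mice (1.02, limma adjusted p = 0.0102).

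**Figure D5:**
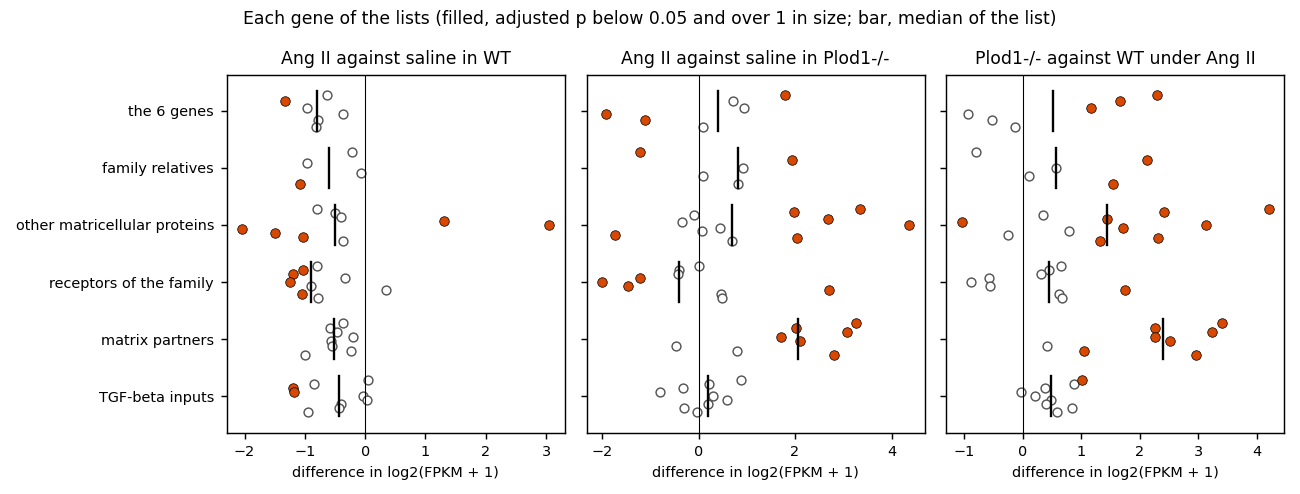
Difference in log2(FPKM + 1) (horizontal axes) of each tested gene of the 6 and of 5 lists (rows), in 3 comparisons. Filled points passed an adjusted p-value of 0.05 and a size of 1, and bars mark list medians. Tnn, Thbs4 and Ccn4 for Ang II in Plod1-/- mice, and Tnn and Ccn4 between the genotypes, are filled but given with no test. They reached the filter chiefly through the Ang II-treated Plod1-/- aortas, and they enter the list medians. The matrix partners lie at a median of 2.06 for Ang II in Plod1-/- mice and -0.51 for Ang II in WT mice.

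Markers of several cell types, and immediate early genes, moved with the same groups, and their part in the results was not tested. The summed FPKM of 7 smooth muscle markers was 14092 to 20412 in saline-treated WT, 5510 to 17041 in Ang II-treated WT, 15031 to 20706 in saline-treated Plod1-/- and 2298 to 16762 in Ang II-treated Plod1-/- aortas. Acta2 made up most of these sums. It averaged 14043 of a mean 16813 FPKM in saline-treated WT and 5712 of 6636 FPKM in Ang II-treated Plod1-/- aortas. Tagln was listed at a mean of only 9.35 FPKM in saline-treated WT aortas. Of these 7, 6 were called lower under Ang II in Plod1-/- mice (median -1.80) and 3 in WT mice (median -0.92). The sum of 6 macrophage markers was 127 to 245 FPKM in saline-treated WT and 199 to 1288 FPKM in Ang II-treated WT aortas. It was 56.9 to 208 FPKM in saline-treated and 633 to 3682 FPKM in Ang II-treated Plod1-/- aortas. The upper end in Ang II-treated WT mice was replicate 1, and the next highest there was 290 FPKM. Lyz2 alone averaged 1892 FPKM in Ang II-treated Plod1-/- aortas, where the mean sum was 2370 FPKM. Under Ang II, all 6 were called higher in Plod1-/- mice and 1 in WT mice. Adipocyte markers summed to 892 to 5494 FPKM in Ang II-treated WT aortas against 82.2 to 562 FPKM in saline-treated WT aortas, and 6 of 6 were called. In Plod1-/- aortas they summed to 136 to 1828 FPKM under saline and 505 to 2870 FPKM under Ang II, and 2 of 6 were called higher. Skeletal muscle markers reached 285 FPKM in Ang II-treated WT aortas and stayed at or below 8.63 FPKM in the other 3 groups. The 6 immediate early genes were listed for the handling of tissue before freezing, which was not tested, and not for a cell type. They summed to 73.6 to 125 FPKM in Ang II-treated WT and to at least 127 FPKM in all other aortas. Under Ang II, all 6 were called lower in WT mice and 2 higher in Plod1-/- mice. Fosb is among the 6 in WT mice but is given there with no test. It reached the filter chiefly through the saline-treated aortas, with an Ang II-treated median of 0.590 FPKM. Fibroblast markers summed to 463 to 678 FPKM in Ang II-treated WT and to 352 to 796 FPKM in Ang II-treated Plod1-/- aortas, and none of 5 was called for Ang II in either genotype. Endothelial markers had a mean sum of 166 FPKM under saline and 139 FPKM under Ang II in WT mice, against 91.7 and 104 FPKM in Plod1-/- mice. Of these 5 genes, Cdh5 was called higher under Ang II in both genotypes. Kdr also rose, by 2.24 in WT and 1.09 in Plod1-/- mice, given with no test. It reached the filter chiefly through the Ang II-treated aortas, with saline-treated medians of 0.325 and 0.599 FPKM. Pecam1 went the other way, at -0.85 in WT and -0.47 in Plod1-/- mice. Vwf differed by -0.19 and 0.06 and Tie1 by 0.36 and 0.70, in the same order. None of these last genes was called. Schwann cell markers had a mean sum of 2.92 FPKM under saline and 6.95 FPKM under Ang II in WT mice, against 4.83 and 19.6 FPKM in Plod1-/- mice. Of these 4 genes, Mbp was called higher under Ang II in Plod1-/- mice. Mbp in WT mice (1.10) and Sox10 in Plod1-/- mice (1.06) also passed both thresholds but are given with no test. Both reached the filter chiefly through the Ang II-treated aortas, with saline-treated medians of 0.793 and 0.749 FPKM. The sum of 2 mesothelial markers lay between 0.0861 and 15.5 FPKM over all aortas. Between the genotypes under Ang II, all 6 macrophage and all 6 immediate early genes were called higher in Plod1-/- mice. Fosb is again given with no test, as it reached the filter chiefly through the Plod1-/- aortas. Called lower were 2 of 7 smooth muscle, 2 of 6 adipocyte, 2 of 4 tested skeletal muscle and 1 of 5 fibroblast genes (Pi16).

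Among the Ang II-treated Plod1-/- mice, the aorta with the highest Tnc, replicate 1 at 153 FPKM, had the highest smooth muscle sum (16762 FPKM) and the lowest macrophage sum (633 FPKM) of its group. Replicate 2, lowest for Tnc, Postn and Sparc in that group, had a smooth muscle sum of 4201 FPKM, a macrophage sum of 2086 FPKM and the highest adipocyte sum of the group (2870 FPKM). Replicate 5, highest for Postn and Sparc and lowest for Smoc1, had the lowest smooth muscle sum (2298 FPKM) and the highest fibroblast sum (796 FPKM). Among the Ang II-treated WT mice, replicate 4 had the highest Tnc, Postn, Sparc, Sparcl1 and Smoc1 values, the highest smooth muscle sum (17041 FPKM) and the lowest adipocyte sum (892 FPKM).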

How the data were processed

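RNA of 20 abdominal aortas was measured, 5 in each group. The authors deposited 1 FPKM value for every Ensembl gene and aorta. The authors' methods name ribosomal read removal, HISAT2, stringtie, cuffquant and cuffnorm, and the submitters' processing notes list HISAT2 2.1.0, Bowtie2 2.2.3, HTSeq 0.6.0 and mm10. Symbols and coordinates came from GENCODE M21 (GRCm38). The FPKM values are whole reads divided by an exon length and 1 total per library: within 0.05 of a read, whole reads were found for 99.95% of 13238 expressed genes, 1940 of them at a length other than the M21 union of exons, among them Smoc2 (2832 bases). No scaling between libraries was seen beyond that total. The libraries were not strand-specific.

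Values were analysed as log2(FPKM + 1), which understates the change of low genes, with limma 3.58.1 in R 4.3.3 (eBayes with a variance trend, two-sided), fitted on all genes that reached 1 FPKM in 5 or more of the compared aortas, and with Benjamini-Hochberg adjustment over them. Comparisons of 2 groups were fitted on those 10 mice and the interaction on all 20. Correlations used 100000 permutations of mice within groups (Python 3.11.15, scipy 1.17.1). The method was tested on simulated data. Nothing says which mice were littermates, and p-values set each difference against the spread between these mice. Replicates of a group differed by far more than counting noise. The genes, lists and tests were chosen with earlier results of these data known. Genes are named by a rule: the 6 genes, Plod1, those called or largest in a list, and the 3 nearest to each of the 6.

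Other settings tried were unfiltered genes, a pseudocount of 0.1, weights per mouse, eBayes without the trend, a replicate block, quantile normalization, mitochondrial genes left out, all 4 groups in one fit, omission of the 2 Xist libraries, the adjusted p-value alone and each mouse left out. limma voom on the recovered reads was added after the data were seen. Read totals limit precision through counting error only.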

Additional observations from a re-analysis of the deposited data

Results flagged for a closer look

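The response to Ang II differed between the genotypes, by the interaction test in limma, in 3 of the 5 genes other than Sparc, where 9.69% of all genes tested had a positive and 6.36% a negative difference past both thresholds. The response in Plod1-/- minus that in WT mice was 2.42 for Tnc, 2.05 for Postn and -1.56 for Sparcl1 on the log2 scale. It was 1.92 for Sparc, which rests in part on the saline values known when the genes were chosen and is no test. Of 24 sets of 5 values, 2 had an aorta far from the other 4, where chance gives about 1 in 20. Postn at 110.3 FPKM in Ang II-treated WT replicate 4 lay above its group, and Sparc at 1204 FPKM in saline-treated WT replicate 3 lay below its group.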

How the results depend on the processing

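Of the 6 genes, 3 passed both thresholds under Ang II in Plod1-/- mice, 1 in WT mice, 3 between the genotypes under Ang II and 4 in the interaction. Over all genes tested, 1714 of 12333, 1039 of 11994, 1373 of 12356 and 2129 of 13263 did, in the same order. Sparc is 1 of the 4 in the interaction and enters the counts by setting below. Where saline-treated mice are used, it is counted as a description, with no test, as its saline values were known when the genes were chosen. In WT mice the count was 4 with weights per mouse, 2 with quantile normalization and 5 with the adjusted p-value alone. With each mouse left out it ran from 1 to 3 in WT mice (3 without replicate 1 and 2 without replicate 4 of the Ang II mice, 2 without replicate 3 of the saline mice) and from 2 to 5 in Plod1-/- mice (5 without replicate 2 and 2 without replicate 5 of the Ang II mice). The counts between the genotypes under Ang II and in the interaction stayed at 3 to 4 and 4 to 5 in all settings. The sign of the uncalled Smoc2 difference between the genotypes under Ang II turned to 0.22 with weights per mouse, to 0.043 without both libraries with Xist RNA or without Plod1-/- replicate 1 and to 0.01 without WT replicate 4. With each mouse left out it ran from -0.32 to 0.077, the last without WT replicate 1. Under Ang II in Plod1-/- mice Smoc2 turned to -0.018 without Ang II-treated replicate 3, and ran from -0.060 without saline-treated replicate 5 to 0.27 without Ang II-treated replicate 1. The cause was not tested. No called difference of the 6 genes changed sign.

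Over all genes, the adjusted p-value alone raised the calls from 1714 to 5408 in Plod1-/- mice, from 1039 to 4560 in WT mice, from 1373 to 3849 between the genotypes under Ang II and from 2129 to 5017 in the interaction, and weights per mouse gave 2134 between the genotypes under Ang II. Under saline, 92 genes were called and the settings gave 38 to 161. Quantile normalization moved the median of all genes between the genotypes under Ang II from 0.12 to -0.03 and in the interaction from 0.12 to -0.01. It changed the split of calls from 920 higher and 453 lower to 744 and 612, and from 1285 positive and 844 negative to 1020 and 1095, while the directions of the called differences of the 6 genes were kept. Same-numbered mice of 2 groups had correlations of deviations from -0.332 to 0.421. Differently numbered mice were not compared, so these values cannot tell whether a number marks a shared batch. The replicate block gave 3, 1, 3 and 4 of the 6 genes, as without it. With 1452 or more reads per library for each of the 6 genes, counting error was small beside the spread between mice.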
